A study of Homo sapiens with 9 samples.

Results

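The DNAJ or HSP40 proteins are the J-domain co-chaperones of the HSP70 chaperones. Their genes were taken here as every symbol of the deposited table made of DNAJ, a class letter (A, B or C) and a number, which gave 43 of 60591 symbols, 4 of class A, 13 of class B and 26 of class C. The RNA came from undifferentiated Caco-2 (uCaco-2) cells, a proliferating culture of a human colon adenocarcinoma line. Cells were left for 24 h in fresh medium (Control), in medium with 300 μM CoCl2 or in medium with 5 μM of an oxyquinoline derivative (OD), and 0.5% DMSO was present in all 3 conditions. Both agents were used in the study to mimic hypoxia chemically, and each condition had 3 libraries of poly(A)-selected mRNA. The samples are thus all of 1 cancer line, and no genetic change separates the groups.

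The J domain holds a conserved histidine-proline-aspartate motif that makes HSP70 hydrolyse ATP and close on its client protein, so each J-domain protein brings HSP70 to particular clients or places. Class A proteins carry, next to the J domain, a glycine- and phenylalanine-rich stretch and a zinc-finger region, class B proteins lack the zinc finger, and class C proteins share little beyond the J domain. Family members work in the cytosol and nucleus, in the lumen or membrane of the endoplasmic reticulum (ER), in mitochondria, on vesicles, and at ribosomes or in RNA processing.

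Stretches around the start site are shown only for members whose windows held a match. Heat-shock factors and hypoxia-inducible factors are known to read short DNA words in promoters. RefSeq windows of 300 bases (GRCh38.p14, 250 bases before to 50 bases after the start site) were matched for 39 of the 43 genes. A heat-shock element of 3 units, GAANNTTCNNGAA on either strand, stood in 2 of the 39 windows (5.13%) and in 0.487% of 27305 windows of all genes. These were the windows of DNAJA1 and DNAJB6, and in the lines below the capitals mark the element.
DNAJA1, chr9:33025268-33025297, + strand: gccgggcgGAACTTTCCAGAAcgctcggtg
DNAJB6, chr7:157336865-157336894, + strand: agagccgaGAACCTTCGCGAAggtggggcg
The element of DNAJA1 began 3 bases after the start site, and that of DNAJB6 began 131 bases before it. The DNAJB6 stretch lies inside the gene as GENCODE draws it, since GENCODE places an earlier start. The 2-unit forms contained in this element, GAANNTTC and TTCNNGAA, each stood in 3 of the 39 windows, against 6.87% and 7.84% of all windows. The ER stress element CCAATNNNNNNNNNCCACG stood in 0 of the 39 windows and in 0.0806% of all. Of 13 genes with a window that were called higher with CoCl2, 2 held the 3-unit element. DNAJB1, DNAJA4 and DNAJB4, which had the largest log2 fold changes with CoCl2, held none of these elements. The DNAJB1 window also lies inside the gene as GENCODE draws it, and all 250 of its bases before the start site are in exons. Stretches before the earlier GENCODE start of DNAJB1 were not searched.

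The core of the hypoxia response element, ACGTG on either strand, stood in 13 of the 39 windows (33.3%) and in 21.6% of all windows. Among genes with a window, 5 of 13 called higher and 3 of 4 called lower with CoCl2 held this core. The windows of DNAJB1, DNAJA4 and DNAJB4 did not. The palindrome CACGTG, which contains that core on both strands, stood in 4 of the 39 (10.3%) and in 7.43% of all. Of the 13, the windows of DNAJB9, DNAJC12 and DNAJC15, called with both agents, and of DNAJC3 are shown with every copy of the core in capitals, a choice made after their values were seen.
DNAJB9, chr7:108569801-108569830, + strand: CACGTGcgcgtagggcgccgggatCACGTG
DNAJC12, chr10:67838216-67838245, - strand: tgcaataatagaCACGTGgactgttctttt
DNAJC15, chr13:43023445-43023474, + strand: gcttgcacgggaCACGTtacccagctcggg
DNAJC3, chr13:95676948-95676977, + strand: gtctcgtgcttcCACGTtatcctatcaggg
The first copies began 73, 45, 129 and 179 bases before the start sites of DNAJB9, DNAJC12, DNAJC15 and DNAJC3. The DNAJC15 stretch also lies inside the gene as drawn by GENCODE. A match of letters is a description and not a bound site, and a window without a match says only that these letters are not in it.

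Libraries held 15998136 to 24209427 counts, and the DNAJ genes together took 0.287 to 0.290% of them in the controls, 0.479 to 0.495% with CoCl2 and 0.255 to 0.264% with OD. Levels are given as CPM, reads of a gene on a common library total, after scaling by TMM factors, which were 1.11 to 1.12 in the controls, 0.770 to 0.795 with CoCl2 and 1.14 to 1.15 with OD. Scaling by library size alone moved the median log2 fold change of all tested genes from -0.05 to -0.55 for CoCl2 against control and from -0.05 to -0.60 for CoCl2 against OD. The share of higher genes among all called genes then fell from 46.0% to 23.9% and from 42.4% to 18.3%. Of 9 intestinal epithelial markers 8 were tested, with a summed level of 10138 to 13838 CPM over the libraries, while CDX1 was at 0 in all and LGALS4 stayed between 0.245 and 2.55 CPM. VIL1, the actin-bundling protein of the brush border, fell with CoCl2 (log2 fold change -2.45, SE 0.044). Fibroblast markers summed to 87.4 to 118 CPM, mostly PDGFRA, and leukocyte markers to 36.2 to 59.2 CPM, mostly LYZ, with PTPRC at no more than 0.232 CPM. Changes in RNA per cell and in the makeup of the culture cannot be told apart in such bulk samples.

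A gene was called when edgeR's quasi-likelihood test gave an adjusted p under 0.05 over 15944 genes together with a log2 fold change beyond 1 in either direction. The edgeR filter on low counts kept 39 of the 43 DNAJ genes, all of classes A and C and 9 of class B. DNAJB8 had 0 counts in every library, which allows up to 3 counts or 0.133 to 0.232 CPM. DNAJB7 had 0 to 4 counts and DNAJB13 had 1 to 10. DNAJB3, a transcribed processed pseudogene in GENCODE, had 1 count in each control library, 3 to 7 with CoCl2 and 0 to 2 with OD. Rows for 18 pseudogene copies of DNAJ genes were also in the table, and 9 of them were empty while the fullest, DNAJA1P3, reached 36 counts in a library.

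With CoCl2, 13 of the 39 tested DNAJ genes were called upregulated (33.3%, against 19.9% of all tested genes) and 5 downregulated (12.8%, against 23.4%). By the adjusted p alone, 21 were higher and 15 lower (background 40.4% and 42.8%), and 3 did not pass. With OD, 2 were called upregulated (5.13%, against 9.09%) and 2 downregulated (5.13%, against 4.16%), and by the adjusted p alone 10 were higher (background 32.3%), 16 lower (background 33.3%) and 13 did not pass. Between the treatments, 13 were called higher with CoCl2 than with OD (33.3%, against 17.5%) and 4 lower (10.3%, against 23.8%). By the adjusted p alone these were 25 and 10, with backgrounds of 40.2% and 43.2%. Sign set aside, log2 fold changes had a median of 0.86 for the DNAJ genes and 0.86 for all genes with CoCl2, and 0.34 and 0.38 with OD. The median with its sign was 0.17 with CoCl2, which turned to -0.33 under library-size scaling, and -0.07 with OD. The 2 comparisons with control share the control libraries.

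**Figure D1:**
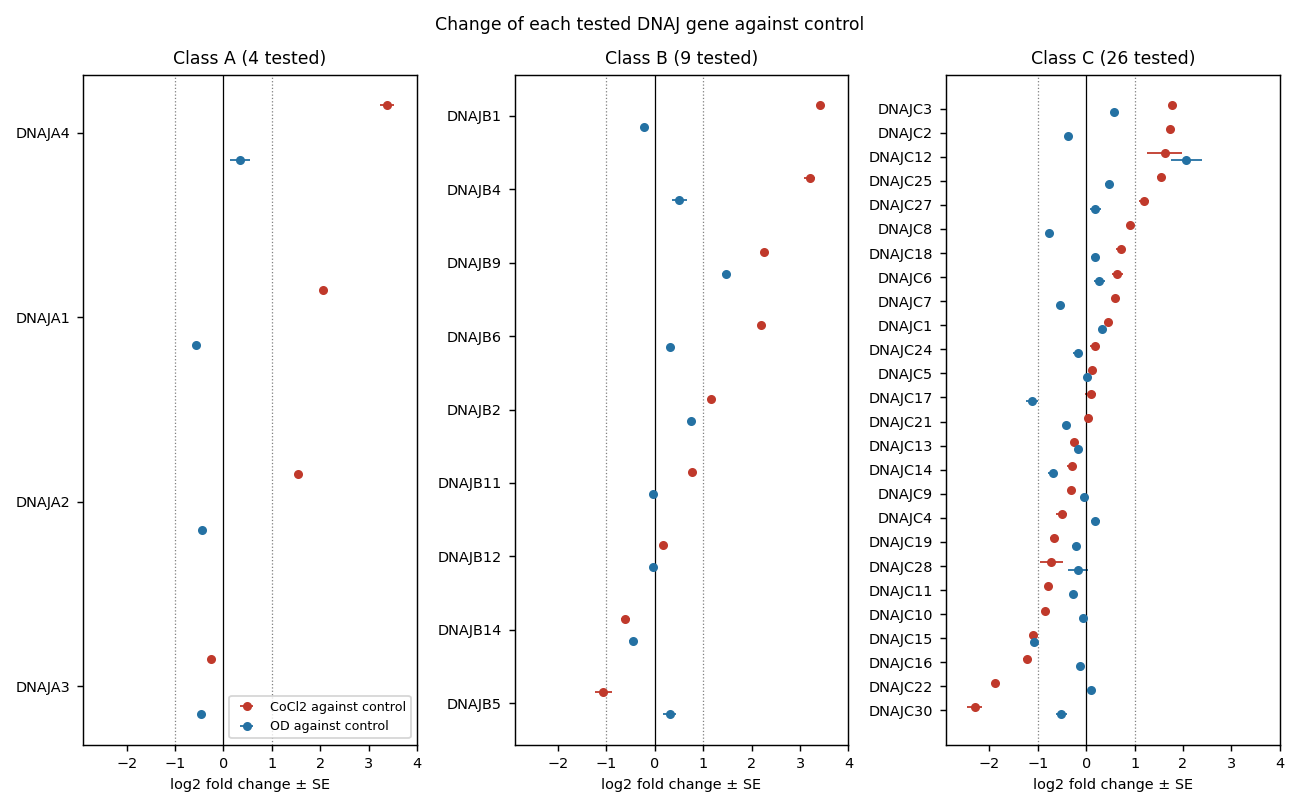
Fitted log2 fold change (x axis) ± SE of each of the 39 tested DNAJ genes with CoCl2 (red) and OD (blue) against control, by class; dotted lines mark a log2 fold change of 1 in size. With TMM scaling 3 of 4 class A genes and 5 of 9 class B genes lie right of the upper line with CoCl2, while class C spreads from -2.31 to 1.76; under library-size scaling every CoCl2 value lies about 0.5 lower and DNAJB2 and DNAJC27 lie inside the lines.

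Class A contains the most abundant member. DNAJA1 (chromosome 9, 33025273 to 33039907, + strand), a cytosolic partner of HSPA8, stood at 420, 422 and 420 CPM in the control libraries, at 1815, 1721 and 1714 with CoCl2, and at 296, 271 and 285 with OD. The 3 groups did not overlap, with CoCl2 on top and OD at the bottom. Its log2 fold change was 2.06 (SE 0.041, adjusted p = 2.4e-49) with CoCl2 and -0.57 (SE 0.040, adjusted p = 1.44e-19) with OD. Per kilobase of exon it was first of the 43 in each condition, at 158 ± 0.37, 656 ± 21.0 and 106 ± 4.69 CPM per kb (SD, n = 3). It made up 66.9 to 68.1% of the class A level in the controls, 83.1 to 83.6% with CoCl2 and 64.9 to 66.3% with OD.

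DNAJA2 (chromosome 16, 46955362 to 46973674, - strand), a further cytosolic class A protein, followed the same order at a lower level. It had 83.6, 81.2 and 80.4 CPM in the controls, 245, 237 and 226 with CoCl2, and 60.4, 58.7 and 61.1 with OD, without overlap. The log2 fold changes were 1.53 (SE 0.045, adjusted p = 8.69e-40) and -0.44 (SE 0.048, adjusted p = 2.37e-12). DNAJA4 (chromosome 15, 78264086 to 78282196, + strand), known as a heat-inducible member, was scarce at 1.45, 1.18 and 1.79 CPM in the controls and reached 14.7, 15.6 and 15.4 with CoCl2. The log2 fold change was 3.38 (SE 0.14, adjusted p = 8.62e-32), from 24 to 32 counts per control library. With OD it stood at 1.95, 1.64 and 1.97 CPM, which overlapped the control libraries, and its log2 fold change of 0.34 (SE 0.21) had an adjusted p of 0.151.

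DNAJA3 (chromosome 16, 4425805 to 4456775, + strand), or TID1, is the class A protein of mitochondria and was the only one of the 4 that was not called with CoCl2. It was at 123, 115 and 117 CPM in the controls, 95.9, 96.7 and 103 with CoCl2 and 88.1, 86.4 and 83.1 with OD. Both treated groups lay below the control libraries, at log2 fold changes of -0.26 (SE 0.047, adjusted p = 1.31e-06) and -0.46 (SE 0.047, adjusted p = 2.29e-13). The summed class A level was 622 ± 5.05 CPM in the controls, 2100 ± 61.3 with CoCl2 and 432 ± 14.3 with OD (SD, n = 3).

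**Figure D2:**
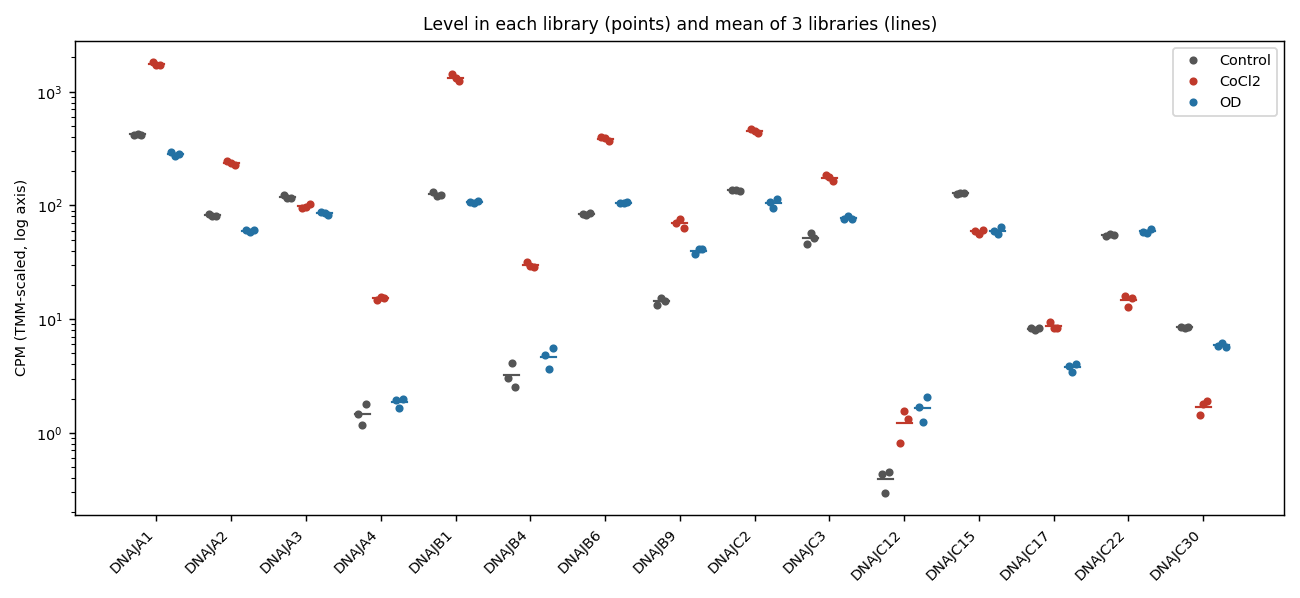
CPM (TMM-scaled, log axis) in each of the 9 libraries for the 15 genes described library by library; points are libraries and lines are means of 3. DNAJB1 rises from 125 to 1327 CPM with CoCl2, DNAJC22 lies at 14.8 CPM against 54.8 in the controls, and DNAJB9 lies above control under both agents.

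Among the 9 tested class B genes, DNAJB1 and DNAJB4 had the largest fold changes with CoCl2. DNAJB1 (chromosome 19, 14514769 to 14560391, - strand), the classical HSP40 that drives HSP70 in refolding and disaggregation, had 132, 121 and 123 CPM in the controls and 1421, 1307 and 1253 with CoCl2. With OD it had 108, 106 and 110 CPM, below every control library. The log2 fold change with CoCl2 was 3.40 (SE 0.046, adjusted p = 1.98e-58), a 10.6-fold rise, and that with OD was -0.22 (SE 0.046, adjusted p = 3.63e-05). DNAJB1 thereby went from 26.4 to 28.1% of the class B level in the controls to 59.8 to 61.8% with CoCl2, and was 20.2 to 20.5% with OD. Per kilobase of the joined exons of all its GENCODE transcripts (8.188 kb), it was ninth in the controls (15.3 ± 0.74 CPM per kb) and with OD. It was second with CoCl2 (162 ± 10.4), and these ranks depend on the length used.

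DNAJB4 (chromosome 1, 77979175 to 78017964, + strand), a close relative of DNAJB1, stood at 3.07, 4.12 and 2.52 CPM in the controls, 31.9, 29.5 and 28.8 with CoCl2 and 4.86, 3.64 and 5.54 with OD. The CoCl2 libraries were far above the rest, while those with OD overlapped control. Its log2 fold changes were 3.20 (SE 0.11, adjusted p = 2.47e-33) and 0.50 (SE 0.15, adjusted p = 0.00374). DNAJB6 (chromosome 7, 157335381 to 157417439, + strand), known to keep polyglutamine and other amyloid-forming proteins soluble, had 84.6, 82.9 and 85.8 CPM in the controls, 401, 390 and 371 with CoCl2 and 104, 105 and 107 with OD. All 3 groups were apart, with log2 fold changes of 2.20 (SE 0.044, adjusted p = 3.29e-49) and 0.32 (SE 0.045, adjusted p = 6.26e-09).

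DNAJB2, which binds ubiquitinated clients, had log2 fold changes of 1.15 with CoCl2 and 0.74 with OD, and that with CoCl2 was 0.65 under library-size scaling, below the threshold. DNAJB5, a further cytosolic relative of DNAJB1, went the other way and was downregulated with CoCl2 (-1.07, SE 0.17) from a level of 4.37 ± 0.25 to 2.08 ± 0.20 CPM (SD, n = 3), and its log2 fold change with OD was 0.31. Of the 8 tested class A and B genes of cytosol and nucleus, 7 were called higher (background 19.9%) and 1 lower (background 23.4%) with CoCl2, a median of 2.13, and 6 stayed called higher under library-size scaling. With OD none of these 8 was called by edgeR or DESeq2 (background 9.09% and 4.16%), while 7 passed an unadjusted p of 0.05, and by the adjusted p alone 4 were higher and 3 lower. The summed class B level was 464 ± 5.88 CPM in the controls, 2187 ± 103 with CoCl2 and 530 ± 7.84 with OD (SD, n = 3).

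**Figure D3:**
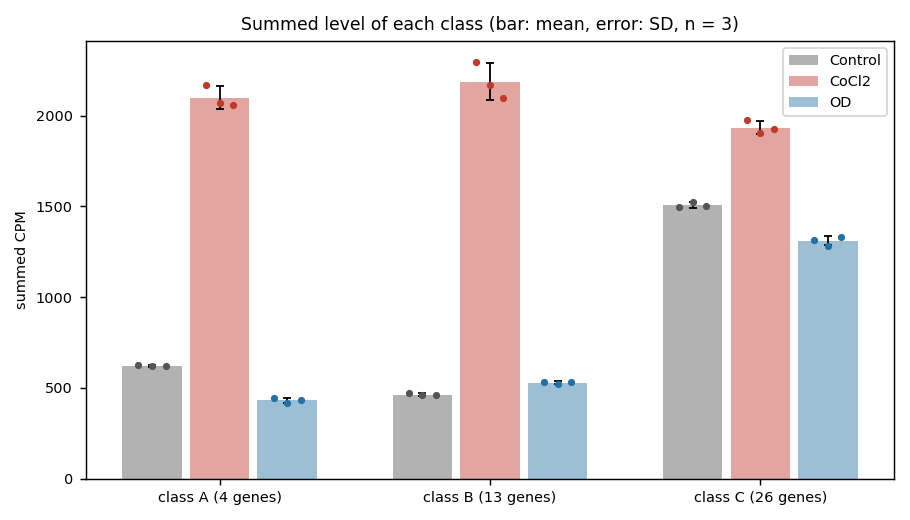
Summed CPM (y axis, from 0, TMM-scaled) of each class; bars are means, error bars SD and points the 3 libraries. Class A goes from 622 to 2100 and class B from 464 to 2187 with CoCl2, and class C from 1509 to 1934, where library-size scaling gives 1678 against 1515 and turns the order.

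Of the ER members, 11 were tested. With CoCl2, 3 were called higher (27.3%, against 19.9% of all genes) and 1 lower (9.09%, against 23.4%), and by the adjusted p alone 7 were higher (63.6%, against 40.4%) and 4 lower (36.4%, against 42.8%). Under library-size scaling 3 were called higher and 3 lower. DNAJB9 (chromosome 7, 108569867 to 108574850, + strand), or ERdj4, which holds HSPA5 on the stress sensor IRE1 and helps to clear misfolded proteins, was the only ER member called under both agents. It had 13.5, 15.4 and 14.5 CPM in the controls, 69.5, 75.8 and 63.7 with CoCl2 and 37.1, 41.5 and 41.5 with OD. The groups were apart, with OD between control and CoCl2. The log2 fold changes were 2.26 (SE 0.070, adjusted p = 1.48e-38) and 1.47 (SE 0.073, adjusted p = 5.04e-27).

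DNAJC3 (chromosome 13, 95677139 to 95794988, + strand), or P58IPK, an ER co-chaperone first described as an inhibitor of eIF2α kinases, showed the same order of groups. It had 45.5, 57.0 and 52.1 CPM in the controls, 186, 177 and 163 with CoCl2 and 75.2, 80.9 and 75.6 with OD. Its log2 fold changes were 1.76 (SE 0.058, adjusted p = 7.43e-29) and 0.58 (SE 0.060, adjusted p = 1.69e-11). DNAJC25 was the third ER member called with CoCl2 (1.54) and had 0.46 with OD. DNAJB11, or ERdj3, a soluble partner of HSPA5, had 0.76 with CoCl2 and -0.03 with OD.

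DNAJC14, an ER membrane protein whose exons overlap other genes over 58.1% of their bases, had log2 fold changes of -0.30 with CoCl2 and -0.69 with OD. DNAJC10, or ERdj5, the ER disulfide reductase with a J domain, had -0.86 with CoCl2 on the log2 scale and stood at 96.7 ± 5.22 CPM against 175 ± 14.5 in the controls (SD, n = 3). DNAJC16 was called lower with CoCl2 (-1.22), and DNAJB14 had -0.61. DNAJC18 and DNAJC1 had 0.71 and 0.45 with CoCl2, and the second turned to -0.06 under library-size scaling. DNAJB12, a membrane protein of ER quality control, had 0.17 and turned to -0.34 in the same way. The ER members together held 537 ± 22.7 CPM in the controls, 739 ± 12.0 with CoCl2 and 588 ± 8.58 with OD (SD, n = 3), and under library-size scaling the CoCl2 level was below that of control (579 against 597).

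All 6 members on the mitochondrial list, a choice on which this count depends, were lower with CoCl2 by the adjusted p alone (background 42.8%). Of them 2 were called lower (33.3%, against 23.4%). With OD, 5 of 6 were lower by the adjusted p alone (background 33.3%), and 1 was called lower (16.7%, against 4.16%). All 6 kept a negative sign under every alternative run, apart from DNAJC28 with OD, whose values ran from -0.30 to 0.02, the last without Control 1. DNAJC15 (chromosome 13, 43023203 to 43114213, + strand), or MCJ, an inner membrane protein known as a brake on respiratory complex I, had 126, 128 and 128 CPM in the controls, 59.8, 56.4 and 61.1 with CoCl2 and 59.2, 56.2 and 64.9 with OD. The treated groups overlapped each other and lay below control in each library. The log2 fold changes were -1.11 (SE 0.052, adjusted p = 3.27e-29) and -1.09 (SE 0.050, adjusted p = 1.11e-28), and the difference between the treatments was -0.02 (SE 0.054, adjusted p = 0.769). That overlap and that difference are with TMM factors. Library-size scaling moved the median of all genes for CoCl2 against OD from -0.05 to -0.60.

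DNAJC30 (chromosome 7, 73680918 to 73683453, - strand), which takes part in the repair of complex I, had 8.50, 8.38 and 8.53 CPM in the controls, 1.43, 1.78 and 1.89 with CoCl2 and 5.86, 6.21 and 5.70 with OD. The CoCl2 libraries were lowest, at 23 to 36 counts each, and the groups did not overlap. The log2 fold changes were -2.31 (SE 0.15, adjusted p = 1.43e-21) and -0.51 (SE 0.11, adjusted p = 4.52e-05). DNAJC11, linked to the cristae organising system, had -0.78 and -0.27. DNAJC19, of the import motor, had -0.66 and -0.21, and DNAJC28 had -0.72 with CoCl2, and -0.17 with an adjusted p of 0.495 with OD. The mitochondrial members together held 336 ± 3.88 CPM in the controls, 208 ± 6.40 with CoCl2 and 220 ± 3.71 with OD (SD, n = 3). Under library-size scaling these sums were 374 ± 3.78, 163 ± 5.69 and 252 ± 3.43, so CoCl2 and OD lay further apart.

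**Figure D4:**
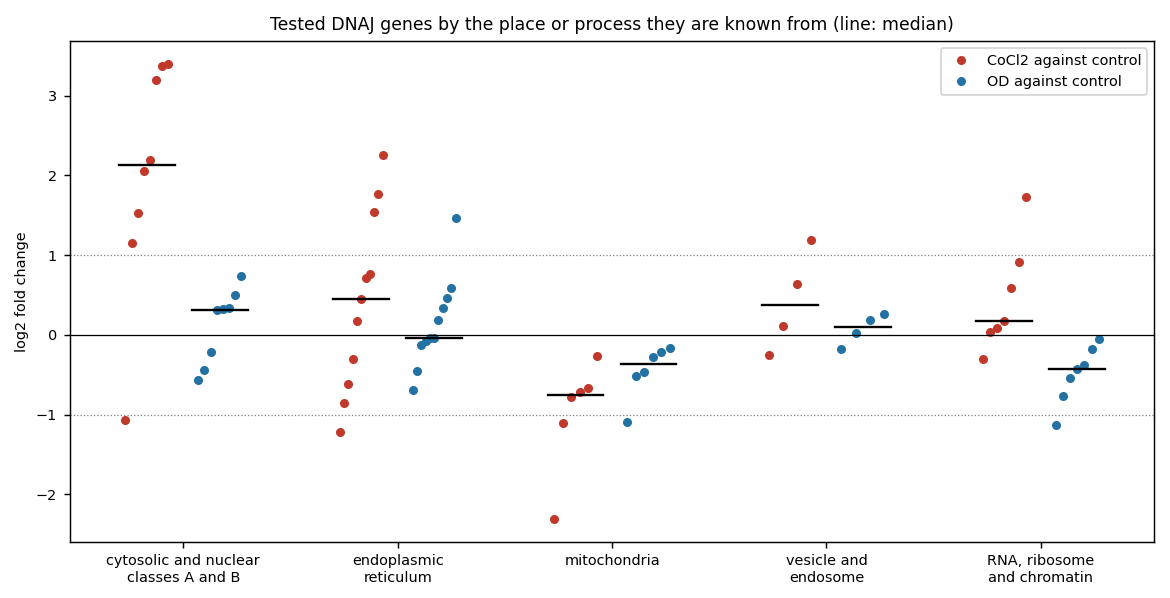
Fitted log2 fold change (y axis, TMM-scaled) of tested DNAJ genes grouped by the place or process they are known from; each point is a gene, red for CoCl2 and blue for OD against control, lines are medians and dotted lines mark 1 in size. The CoCl2 median is 2.13 for the cytosolic and nuclear class A and B genes and -0.75 for the mitochondrial genes; under library-size scaling all CoCl2 values lie about 0.5 lower.

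Of 7 class C members listed for ribosomes, RNA processing and chromatin, 1 was called higher with CoCl2 (14.3%, against 19.9% of all genes). With OD, 1 was called lower (14.3%, against 4.16%), and 5 of the 7 were lower by the adjusted p alone (background 33.3%). The list also holds DNAJC7, which was 1 of these 5, and DNAJC24, both known from other functions. DNAJC2 (chromosome 7, 103312289 to 103344830, - strand), or MPP11, the J-domain part of the ribosome-associated complex, had 136, 138 and 135 CPM in the controls, 472, 453 and 433 with CoCl2 and 108, 95.5 and 113 with OD. The groups did not overlap and OD was lowest, with log2 fold changes of 1.73 (SE 0.045, adjusted p = 8.53e-42) and -0.37 (SE 0.047, adjusted p = 3.43e-10). Exons of genes on the other strand, among them PMPCB, cover 21.1% of its exonic bases.

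DNAJC17 (chromosome 15, 40765161 to 40807478, - strand), linked to pre-mRNA splicing, had 8.29, 7.99 and 8.41 CPM in the controls, 9.52, 8.43 and 8.34 with CoCl2 and 3.91, 3.42 and 3.99 with OD. CoCl2 overlapped control (0.09, SE 0.11, adjusted p = 0.433, and -0.41 under library-size scaling), and all OD libraries were lower (-1.13, SE 0.12, adjusted p = 1.51e-12). Genes on the other strand cover 27.9% of its exonic bases. DNAJC8, a spliceosome-associated protein, had log2 fold changes of 0.91 with CoCl2 and -0.77 with OD, and DNAJC7, a TPR protein that binds HSP70 and HSP90, had 0.59 and -0.54. DNAJC21, of ribosome assembly, had 0.03 with CoCl2 (adjusted p = 0.564, and -0.47 under library-size scaling) and -0.43 with OD. DNAJC9, a histone chaperone whose exons overlap FAM149B1 on the other strand over 56.5% of their bases, had -0.31 and -0.06. DNAJC24, of diphthamide synthesis, had 0.17 (-0.33 under library-size scaling) and -0.18 without passing the test in either.

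Of the 4 vesicle and endosome members tested, DNAJC27 alone was called higher with CoCl2 (1.19, background 19.9%), and had 0.69 under library-size scaling. DNAJC6, or auxilin, which strips clathrin from vesicles, had 0.64 with CoCl2 and 0.27 with OD. DNAJC5, the cysteine string protein, was among the most abundant members at 219 ± 10.8 CPM in the controls (SD, n = 3), and its log2 fold changes were 0.11 with CoCl2, which turned to -0.39 under library-size scaling, and 0.02 with OD (adjusted p = 0.724). DNAJC13, of endosomal sorting, had -0.26 and -0.17.

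DNAJC12 and DNAJC22 stood in none of these lists. DNAJC12 (chromosome 10, 67796669 to 67838188, - strand), a co-chaperone of the aromatic amino acid hydroxylases, was at 0.430, 0.294 and 0.449 CPM in the controls, 0.809, 1.55 and 1.31 with CoCl2 and 1.68, 1.24 and 2.08 with OD. All treated libraries were above all control libraries, and the treated groups overlapped. The log2 fold changes were 1.62 (SE 0.36, adjusted p = 4.75e-05) and 2.07 (SE 0.32, adjusted p = 7.73e-08), resting on 6 to 8 counts per control library and 13 to 39 in treated ones. The difference between the treatments did not pass the test (-0.44, SE 0.26, adjusted p = 0.107). DNAJC22 (chromosome 12, 49346888 to 49357546, + strand), a multipass membrane protein, had 54.3, 55.7 and 54.5 CPM in the controls, 16.1, 12.8 and 15.5 with CoCl2 and 58.2, 57.4 and 61.6 with OD. It fell with CoCl2 (-1.88, SE 0.069, adjusted p = 1.53e-34), and with OD had 0.11 (SE 0.055, adjusted p = 0.0849). DNAJC4, also in none of the lists, had -0.51 with CoCl2 and 0.19 with OD (adjusted p = 0.0693).

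Across class C as a whole, 5 of 26 genes were called higher with CoCl2 (19.2%, against 19.9% of all genes) and 4 lower (15.4%, against 23.4%). In class A 3 of 4 were called higher, and in class B 5 of 9 were called higher and 1 lower. With OD, class A had none called by edgeR or DESeq2. In that class 3 of 4 passed an unadjusted p of 0.05, and 3 were lower by the adjusted p alone (75.0%, against 33.3% of all genes). Class B had DNAJB9 called higher (11.1%, against 9.09%). Class C had DNAJC12 called higher (3.85%, against 9.09%) and DNAJC15 and DNAJC17 lower (7.69%, against 4.16%). The summed class C level was 1509 ± 15.4 CPM in the controls, 1934 ± 36.5 with CoCl2 and 1311 ± 25.6 with OD (SD, n = 3). Under library-size scaling the same sums were 1678 ± 22.8, 1515 ± 4.46 and 1499 ± 27.5, so the order of control and CoCl2 turned.

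The comparisons of CoCl2 and of OD with control share the control libraries, so their values are only set side by side. DNAJA1, DNAJA2, DNAJB1, DNAJC2, DNAJC7 and DNAJC8 passed the adjusted p in both, with log2 fold changes of 2.06, 1.53, 3.40, 1.73, 0.59 and 0.91 with CoCl2 and -0.57, -0.44, -0.22, -0.37, -0.54 and -0.77 with OD. Each kept both signs under library-size scaling, where the CoCl2 value of DNAJC7 was 0.09. DNAJB5 passed with the signs the other way, at -1.07 and 0.31.

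The 2 agents were compared directly as CoCl2 against OD. The largest positive differences were those of DNAJB1 (log2 difference 3.62, SE 0.047, adjusted p = 1.72e-59), DNAJA4 (3.04), DNAJB4 (2.69), DNAJA1 (2.62), DNAJC2 (2.11), DNAJA2 (1.98), DNAJB6 (1.88) and DNAJC8 (1.68), and these were called also under library-size scaling. DNAJC17 (1.22), DNAJC3 (1.18), DNAJC7 (1.13), DNAJC25 (1.08) and DNAJC27 (1.01) were called with TMM factors and were between 0.46 and 0.67 under library-size scaling. DNAJC27 sat at the threshold, and its call was lost without Control 1 (0.99), CoCl2 2 (0.92) or OD 1 (0.95). DNAJC7 and DNAJC8 were called between the treatments and in neither comparison with control. Lower with CoCl2 than with OD were DNAJC22 (-1.98), DNAJC30 (-1.79), DNAJB5 (-1.38) and DNAJC16 (-1.09). The median difference over the 39 genes was 0.38, and -0.17 under library-size scaling, where the median of all genes was -0.60.

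**Figure D5:**
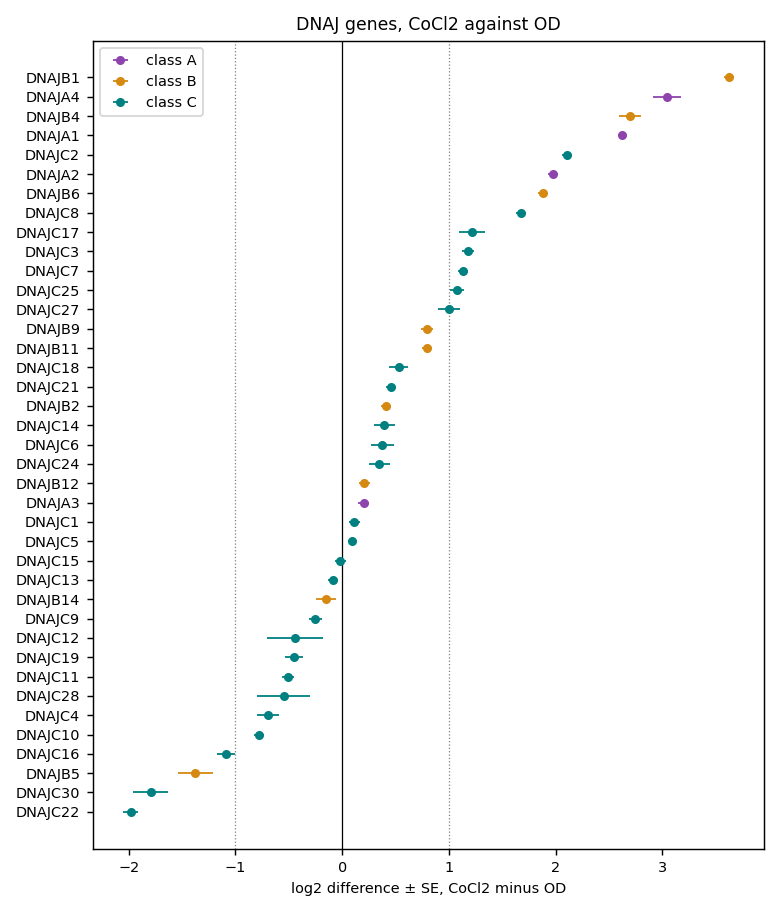
Log2 difference (x axis, CoCl2 minus OD, TMM-scaled) ± SE of each tested DNAJ gene, coloured by class and ordered by size, with dotted lines at 1 in size. Values run from -1.98 for DNAJC22 to 3.62 for DNAJB1; 13 genes lie beyond the upper line and 4 beyond the lower, and under library-size scaling all values lie about 0.5 lower and 8 lie beyond each line.

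Genes of the HSP70 family, which holds the partners of these co-chaperones, were counted from a list of 12, all tested. With CoCl2, 9 were called higher and 1 lower (19.9% and 23.4% of all genes were), and with OD 2 higher and 1 lower (9.09% and 4.16%). Library-size scaling, applied to the partner lists after the data were seen, left 7 higher with CoCl2, without HSPA1L (1.49 to 0.98) and HSPA14 (1.33 to 0.83). HSPA8, the constitutive HSP70 of the cytosol, went from 4063 ± 87.2 CPM to 23459 ± 1683 with CoCl2 and 2339 ± 43.9 with OD (SD, n = 3), log2 fold changes of 2.53 and -0.80. HSPA5, or BiP, of the ER had log2 fold changes of 2.17 and 0.32, and HSPA9, or mortalin, of mitochondria had 0.99 and -0.31. The inducible genes HSPA1A and HSPA1B had log2 fold changes of 7.26 and 6.51 with CoCl2 and -0.65 and -0.47 with OD, and because their sequences are nearly identical, reads may be split between them. HSPA6 had 1 count in each control library and 212 ± 6.15 CPM with CoCl2 (SD, n = 3), at least 1338-fold higher than 3 counts per control library. It was also called higher with OD (2.57), at only 0.363 ± 0.239 CPM there (SD, n = 3), so that call rests on few counts.

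Nucleotide exchange factors, which release ADP from HSP70 and so end the cycle that J domains start, had 5 of 13 called higher with CoCl2 (background 19.9%) and 1 lower with OD (background 4.16%). Under library-size scaling 2 stayed called higher with CoCl2, those with the largest changes. These were BAG3 (3.67) and HSPH1 (2.68), and HSPH1 was also the gene called lower with OD (-1.11). Of 5 TPR cofactors 4 were called higher with CoCl2 (background 19.9%), led by TTC1 (2.22) and STIP1 (1.17). TTC1 alone of these was called under library-size scaling. With OD 4 of the 5 were lower by the adjusted p alone (background 33.3%). Of 15 ER partners and unfolded protein response genes, 6 were called higher with CoCl2 (background 19.9%), led by HSPA5 and ERN1 (1.72). HERPUD1, also among these 6 (1.61), was the 1 gene called higher with OD (1.64, background 9.09%). Under library-size scaling 3 of the 15 were called higher and 2 lower with CoCl2. Of the mitochondrial import motor 7 partners were tested. Their log2 fold changes ran from -0.50 to 0.99 with CoCl2 (TMM factors) and from -0.83 to 0.41 with OD. By the adjusted p alone, 4 were higher and 2 lower with CoCl2 (background 40.4% and 42.8%). With OD, 1 was higher and 4 were lower (background 32.3% and 33.3%). Library-size scaling gave TIMM44 of this list a call with CoCl2 (-1.01). Among 3 heat-shock factors, HSF2 was called higher with CoCl2 (1.04), and had 0.53 under library-size scaling, where HSF4 was called lower (-1.14). Of the J-domain proteins with other names, SEC63 had a log2 fold change of 0.33 with CoCl2, GAK had 0.66 and HSCB had 0.12 (adjusted p = 0.399), and these were not called.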

How the data were processed

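mRNA was measured in 9 libraries of uCaco-2 cells, 3 per condition, which the authors describe as biological replicates. Per the labels and methods, single-end reads of stranded libraries were checked with FastQC 0.11.9, trimmed with cutadapt 2.10 and mapped on GRCh38.p13 with STAR 2.7.5b. The values the authors deposited are raw read counts per GENCODE 34 gene symbol, without normalization. The counting tool and its strand and multi-mapping settings are not given in the sources used here. All 9 sample columns were used and 0 were left out.

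edgeR 4.0.16 (R 4.3.3) computed TMM factors, kept 15944 of 60591 symbols (filterByExpr, minimum count 10) and fitted 1 robust quasi-likelihood model over the 9 libraries, with Benjamini-Hochberg adjustment over all tested genes. SE was taken as the log2 fold change divided by the root of F. On simulated counts for CoCl2 against control (log2 fold change 2), the step recovered 193 of 200 changed genes (96.5%) among 15374. It made 1 false call. Only these 200 genes were changed there, against 3167 called higher and 3724 called lower with CoCl2 in the data. The simulation therefore does not test the scaling under so many changes. At 15998136 to 24209427 counts per library, SEs with CoCl2 were 0.041 for DNAJA1 and 0.36 for DNAJC12, and the limits given for counts of 0 hold only counting error.

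Positions and exons came from GENCODE 44 on GRCh38, matched by symbol for 43 of 43 genes, and promoter windows from RefSeq. Levels per kilobase used the joined exons of all transcripts of a gene. The members and lists were chosen with earlier results of these data known. Values per library are given for class A and for called genes of 1 CPM or more on average, up to the 10 largest fold changes per agent, and other members by log2 fold change. The authors tested with DESeq2, run here in version 1.42.0 as an alternative, beside other scalings, filters and left-out libraries. The values of some listed genes are not reported here.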

Additional observations from a re-analysis of the deposited data

How the results depend on the processing

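Of 117 gene-level values (39 genes in 3 comparisons), all 117 kept their sign where called and their side of the threshold under DESeq2 on 9 libraries, edgeR on the 6 libraries compared, RLE factors and the replicate block, and 116 under DESeq2 on 6 libraries. Library size alone changed the most calls among the scalings: with CoCl2, genes called lower rose to 11, with DNAJC11, DNAJC10, DNAJC19, DNAJB14, DNAJC4 and DNAJC28 added, and against OD 8 were called higher and 8 lower. It reversed the DNAJ median to -0.33 with CoCl2 and to -0.17 against OD, and gave -0.034 for OD against control. The median with CoCl2 (0.17) was 0.33 and 0.30 under DESeq2 on 9 and 6 libraries, 0.22 under RLE, 0.25 without a filter and 0.14 with at least 10 counts in every library, and 0.14 to 0.23 when 1 library was left out. The median with OD (-0.074) was -0.057 under DESeq2 on 9 libraries, -0.054 under DESeq2 on 6 and -0.057 under edgeR on 6, and -0.0862 to -0.0189 when 1 library was left out, with -0.0189 without Control 1. The median against OD (0.38) was 0.35 under DESeq2 on 6 libraries, 0.42 under RLE, 0.30 without a filter, 0.33 with at least 10 counts, and 0.34 to 0.41 when 1 library was left out. By the adjusted p alone, 21 genes were higher and 15 lower with CoCl2, 10 and 16 with OD, and 25 and 10 between the agents. At least 10 counts in every library removed DNAJC12 and left 1 gene called higher with OD. A test against a log2 fold change of 1 (glmTreat) left 0 called lower with OD, where 2 had been called and 16 passed the adjusted p alone, and also ended the calls of DNAJB5 with CoCl2 and of DNAJC16, DNAJC25 and DNAJC27 against OD. The causes of these shifts in the medians were not tested. Strong pairing by replicate number was not seen. Deviations of same-numbered libraries correlated at -0.005 to 0.038, and those of different numbers at -0.047 to 0.025. Libraries numbered 2 correlated best with each other (0.022 to 0.038), while not every library correlated best with its own number. Values this small cannot tell weak pairing from none. With the replicate block, 13 genes were again called higher with CoCl2 and no call changed. Genes near 10 counts, such as DNAJC12 in control cells, are limited by depth.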
